A study of Homo sapiens with 2 samples.

Results

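The replication-dependent histone genes make the H1, H2A, H2B, H3 and H4 proteins that package newly copied DNA, and they lie in clusters on chromosomes 6 and 1. They were taken as all probes whose gene symbol is that of a clustered histone gene: older symbols starting with HIST1H to HIST4H, or current symbols H1-1 to H1-6, H2AC, H2BC, H3C and H4C with a number. The probe annotation held no histone symbol of the older form. The rule used no measured value. It found 71 probes for 64 genes, of 23687 probes with 1 gene symbol for 18774 genes. By class there were 6 H1, 16 H2A, 18 H2B, 12 H3 and 12 H4 genes, and by cluster 54 genes of HIST1 on chromosome 6, 8 of HIST2 on chromosome 1, 2 of HIST3 on chromosome 1 and 0 of HIST4.

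Expression was compared between 1 array of MDA-MB-231 cells given an siRNA against NSD3L and 1 array of the same cells given a control siRNA of no specific target. MDA-MB-231 is an established, highly invasive human breast cancer line, and NSD3L is the long isoform of NSD3, a methyltransferase of histone H3. Both cultures were transfected 2 times, 48 h apart, and harvested 48 h after the later round. The NSD3L siRNA was used at 20 nM, while the labels give no concentration for the control. With 1 array per group there is no error between cultures, no test and no p-value, and precision is limited by that number. The intensities kept a background near 35, and a floor at the upper edge of it was set at 40.9 on the NSD3L siRNA array and 41.0 on the control array.

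In cycling cells, transcription of these genes rises in S phase together with DNA replication. Their main mRNAs end in a conserved stem-loop bound by SLBP in place of a poly(A) tail, and the mRNAs are degraded when replication ends. Several of the genes, H2BC5, H2BC12, H2BC21, H2AC6 and H1-2 among them, are also known to give polyadenylated transcripts. The labels name reverse transcription followed by in vitro transcription but not the primer. Which form of transcript a probe reported was therefore not tested.

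Across the whole series, 10545 genes exceeded the floor on both arrays, termed measured below, and had a median log2 ratio (NSD3L siRNA over control) of 0.00 and an SD over genes of 0.33. The 3 NSD3 probes lay near the background and all read lower on the NSD3L siRNA array. One was measured, at 41.6 against 45.0 (log2 ratio -0.115). The others exceeded the floor on the control array alone, at 40.8 against 55.3, at least 1.35-fold lower, and at 37.6 against 41.9, at least 1.02-fold lower. Which of these probes report the long isoform was not established, and readings so close to background do not establish depletion. Of 10 markers of the line, 9 exceeded the floor on both arrays, VIM among them at 9129 and 8758, while of 10 luminal markers 5 exceeded it on both, KRT18 at 1731 and 1295, KRT19, KRT8, CDH1 and ERBB3, and 5 were below it on both, ESR1, PGR, GATA3, FOXA1 and TFF1. Only 2 of 5 blood cell markers and 1 of 5 fibroblast markers were above it on both, the highest of those 3 reading 55.6.

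Promoters are shown for the 3 measured back-to-back pairs of H2A and H2B genes, and for 1 gene each of H1, H4 and H3. Genes of different classes are given since they differ in sequence there. The gene shown for H1, H4 and H3 had the largest absolute log2 ratio among measured genes of its class with a promoter found. Capitals mark 4 short motifs on either strand: the octamer of H2B promoters (ATTTGCAT), the CCAAT box (CCAAT), the TATA box (TATAAA) and the AC box of H1 promoters (AAACACA). None of these 4 overlapped another in the stretches shown. Sequences are from RefSeq, build GRCh38.p14. For 3 pairs of an H2A and an H2B gene that start back to back and were both measured, the whole stretch between the start sites is given, on the plus strand. It covers chr1:149886683-149886917 for H2BC21 and H2AC20, chr6:26123927-26124171 for H2BC4 and H2AC6, and chr6:27893186-27893424 for H2AC17 and H2BC17.
H2BC21/H2AC20: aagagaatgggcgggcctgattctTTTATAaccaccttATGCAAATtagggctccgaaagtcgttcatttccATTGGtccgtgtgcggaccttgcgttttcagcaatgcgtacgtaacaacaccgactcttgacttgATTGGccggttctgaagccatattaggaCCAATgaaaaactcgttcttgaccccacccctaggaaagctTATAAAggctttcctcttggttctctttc
H2BC4/H2AC6: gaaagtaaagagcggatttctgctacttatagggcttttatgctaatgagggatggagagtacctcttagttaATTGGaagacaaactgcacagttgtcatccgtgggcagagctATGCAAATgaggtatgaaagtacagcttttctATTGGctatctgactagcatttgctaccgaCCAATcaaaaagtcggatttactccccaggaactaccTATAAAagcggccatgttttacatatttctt
H2AC17/H2BC17: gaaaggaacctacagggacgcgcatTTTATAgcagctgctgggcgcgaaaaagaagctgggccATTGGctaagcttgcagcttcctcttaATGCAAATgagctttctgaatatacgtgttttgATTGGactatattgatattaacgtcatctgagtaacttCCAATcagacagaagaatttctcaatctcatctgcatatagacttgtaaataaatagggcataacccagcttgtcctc

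The 250 bases before the start site are given for the linker histone gene H1-2 (chr6:26056471-26056720, minus strand), for H4C8 (chr6:26285535-26285784, minus strand) and for H3C14 (chr1:149841209-149841458, minus strand), which read lower, lower and higher with the NSD3L siRNA.
H1-2: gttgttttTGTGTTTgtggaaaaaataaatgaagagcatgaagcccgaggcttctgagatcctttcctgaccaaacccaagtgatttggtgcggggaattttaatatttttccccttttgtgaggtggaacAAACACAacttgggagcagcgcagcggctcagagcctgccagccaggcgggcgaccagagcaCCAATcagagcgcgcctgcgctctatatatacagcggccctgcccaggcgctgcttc
H4C8: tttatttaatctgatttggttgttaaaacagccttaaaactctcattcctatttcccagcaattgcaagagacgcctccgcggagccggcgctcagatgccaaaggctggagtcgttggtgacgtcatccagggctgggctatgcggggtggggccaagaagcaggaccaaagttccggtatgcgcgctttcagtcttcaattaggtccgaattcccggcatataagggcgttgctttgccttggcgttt
H3C14: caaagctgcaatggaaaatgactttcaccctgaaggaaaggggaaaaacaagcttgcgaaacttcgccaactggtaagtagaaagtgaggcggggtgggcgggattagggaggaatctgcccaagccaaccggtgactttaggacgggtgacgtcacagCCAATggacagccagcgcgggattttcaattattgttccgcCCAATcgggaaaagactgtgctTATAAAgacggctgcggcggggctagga

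Promoters were found for 59 of the 64 genes, H4C3 not among them, and the motifs followed the histone class. The octamer was in the 250 bases before the start of 14 of 18 H2B genes and 11 of 15 H2A genes, which often share the stretch with an H2B gene, and of 1.63% of all 35116 promoters in the table. It was found in 1 of 10 H3 genes and in 0 of 6 H1 and 0 of 10 H4 genes. The AC box was in all 6 H1 promoters and in no promoter of another class here, against 4.82% of all promoters. A CCAAT box was in all H1, H2A, H2B and H3 promoters and in 3 of 10 H4 promoters, against 32.0% of all promoters, and a TATA box was in 38 of 59, against 10.7%. These are matches of letters and not measured binding sites.

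More of the measured histone genes read lower than higher with the NSD3L siRNA, and the larger differences were on the lower side with 1 exception. Of the 64 genes, 29 exceeded the floor on both arrays, 8 on 1 array alone and 27 on neither. Of the 29, 20 read lower (69.0%) and 9 higher, where 50.6% of all measured genes read lower and 49.3% higher. More than 2-fold lower were 3 genes (10.3%), against 0.607% of all measured genes, and more than 2-fold higher was 1 gene (3.45%), against 0.341%. More than 1.5-fold lower were 8 genes (27.6%), against 4.06%, and more than 1.5-fold higher was 1, against 3.63%. The median log2 ratio of the 29 was -0.10, between -1.50 and 1.11, close to the 0.00 of all genes.

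That median differed with the brightness of the probes. The cut at a mean intensity of 100 was chosen after the data were seen, so the split is a description only. Among the 10 histone genes with a mean intensity above 100, the median was -0.64, and 7 were more than 1.5-fold lower, against 5.85% of all genes that bright. Among the 19 measured genes at or below 100, the median was -0.03, and 1 was more than 1.5-fold lower (5.26%), against 1.77% of all measured genes that dim. With the mode of each array subtracted as background, the median of the 29 was -0.21, that of the brighter 10 was -0.81 and that of the dimmer 19 was -0.06. With that setting 5 genes were more than 2-fold lower, against 3.40% of all measured genes, and 3 more than 2-fold higher, against 2.42%. By class, its medians were -1.04 for H1 (1 gene), -0.21 for H2A, -0.83 for H2B, 0.38 for H3 and -0.15 for H4. The part of the background in the difference between bright and dim probes was not tested. The SD of the log2 ratio among similarly bright probes, taken in 10 bins of equal size, was between 0.063 and 0.41. It describes these 2 arrays and not the spread between cultures.

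**Figure D1:**
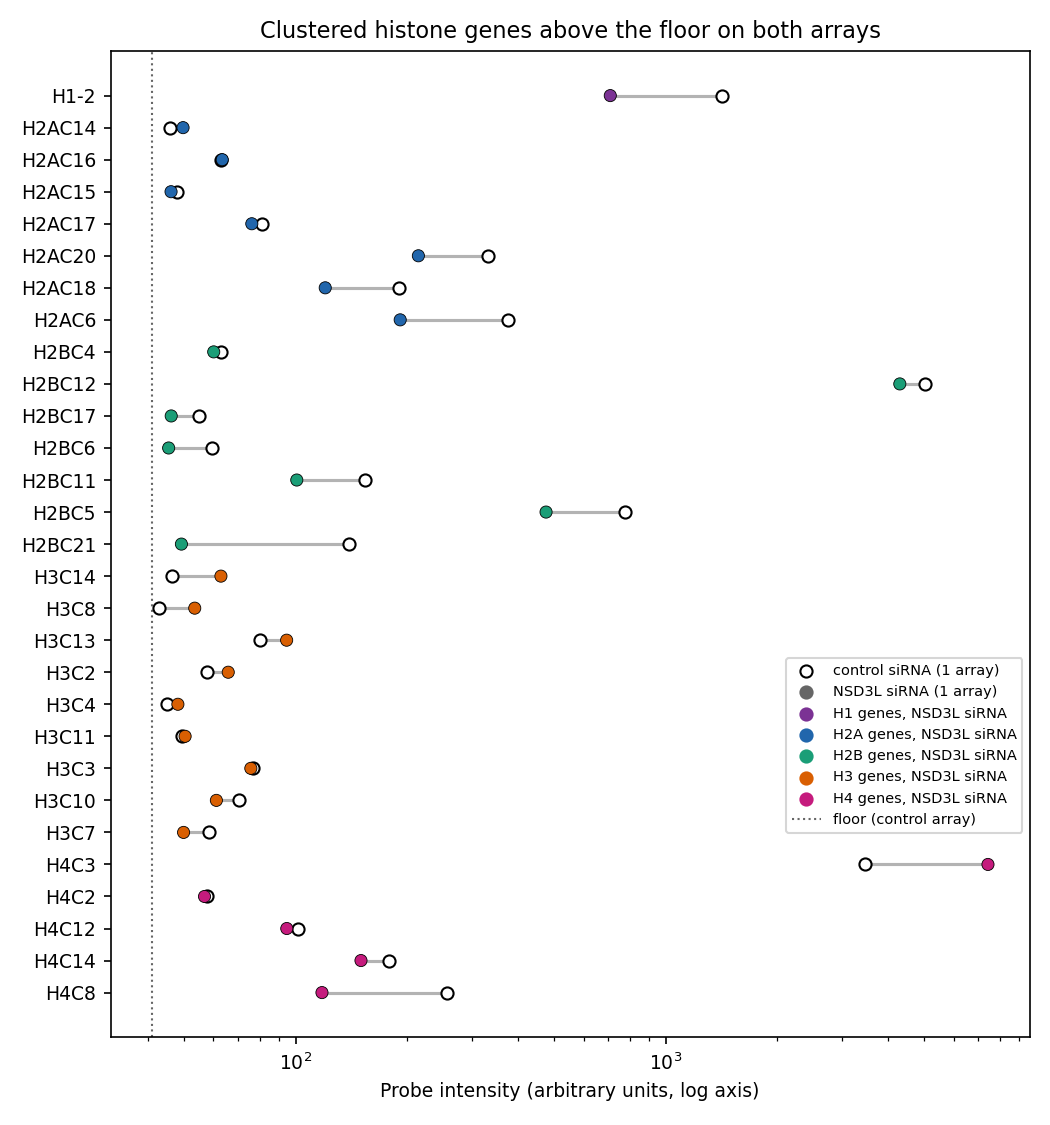
Intensity of the 29 histone genes above the floor on both arrays (arbitrary units, log axis), by class. Open circles are the control siRNA array, filled circles the NSD3L siRNA array, 1 array each, and the dotted line is the floor of the control array at 41.0. All 7 H2B genes lie lower with the NSD3L siRNA, where 50.6% of all measured genes read lower. H4C3 lies higher, at 7431 against 3452.

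The linker histone H1 binds DNA where it enters and leaves the nucleosome. H1-2, which encodes the subtype H1.2, read 709 after the NSD3L siRNA and 1422 after the control siRNA, for a log2 ratio of -1.004. It was 2.01-fold lower, at the edge of the 2-fold threshold, with H2AC6 just short of it at 1.95-fold. The SD of probes as bright was 0.35. No other H1 gene was above the floor on both arrays. H1-3 was above it on the control array alone, at 36.7 against 43.5, at least 1.06-fold lower when the floor stands for the dimmer reading. The testis gene H1-6 read 41.2 against 36.6, just above the floor on the NSD3L siRNA array alone. H1-1, H1-4 and H1-5 were below the floor on both arrays.

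H2A and H2B form the dimers that are exchanged most readily from the nucleosome. The 3 H2A genes with readings over 100 on both arrays were lower, and the 4 with readings under 100 were near 0. H2AC6 read 192 after the NSD3L siRNA and 375 after the control siRNA (log2 ratio -0.97). H2AC18 read 120 against 191, for a ratio of -0.67, and H2AC20 read 215 against 331, with a ratio of -0.62. Of the 7 measured H2A genes, these 3 alone were past 1.5-fold (42.9%), against 4.06% of all measured genes on the lower side. Each of the 3 lay beyond the SD of probes as bright, at 0.39, 0.37 and 0.39. H2AC17, H2AC15, H2AC16 and H2AC14 read between 45.9 and 81.1 and had log2 ratios of -0.09, -0.06, 0.01 and 0.11, within that SD. Above the floor on the control array alone were H2AC7, at 35.4 against 48.9 and at least 1.20-fold lower, and H2AC12, at 40.0 against 43.8 and at least 1.07-fold lower. The other 7 H2A genes were below the floor on both arrays.

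All 7 H2B genes above the floor on both arrays read lower with the NSD3L siRNA, where 50.6% of all measured genes read lower. Their median log2 ratio was -0.39, and 3 were more than 1.5-fold lower (42.9%), against 4.06% of all measured genes. H2BC21, the gene also called H2BE, read 49.1 against 139, a log2 ratio of -1.50 and 2.83-fold lower. It ranked 7th from the lowest of all 10545 genes. Its reading with the NSD3L siRNA lay close to the background, and with the mode subtracted the log2 ratio was -2.86. H2BC5 read 475 against 778 (log2 ratio -0.71), and its other bright probe read 372 against 592, with a ratio of -0.67. A further H2BC5 probe read 39.3 against 43.3 and gave only a bound, at least 1.06-fold lower. Both measured probes of that gene thus gave nearly the same ratio.

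H2BC11 read 101 against 154 (log2 ratio -0.61), and H2BC6 read 45.4 against 59.6, with a ratio of -0.39. H2BC17, at 46.1 against 55.0, and H2BC4, at 60.1 against 62.9, had log2 ratios of -0.25 and -0.06. H2BC12, a bright probe at 4294 against 5018, had a log2 ratio of -0.22, inside the SD of 0.35 of probes as bright. A second H2BC12 probe read 468 against 672, with a ratio of -0.52. The probes of this gene gave the same direction and unlike sizes. H2BC13 was above the floor on the control array alone, by under 1, and the other 10 H2B genes were below it on both.

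The H3 protein carries the lysine that NSD3 methylates. The measured H3 genes all read under 100, and the 19 measured histone genes at or below 100, H3 genes among them, had a median log2 ratio of -0.03. Whether the H3 class differs from other dim histone genes was not tested. Of 9 measured H3 genes, 6 read higher and 3 lower, with a median log2 ratio of 0.09, where 50.6% of all measured genes read lower. None was past 1.5-fold, which is also rare among all measured genes at or below 100, at 1.77% lower and 0.928% higher. H3C14 read 62.8 after the NSD3L siRNA and 46.4 after the control siRNA (log2 ratio 0.44), and H3C13 read 94.6 against 80.3, with a ratio of 0.24. Both belong to the HIST2 genes for the H3.2 protein, which include near-identical copies that a probe may not tell apart. H3C8 read 53.4 against 42.8, with a ratio of 0.32. With the mode subtracted, H3C14 and H3C8 had log2 ratios of 1.29 and 1.23, and so were more than 2-fold higher, as were 2.42% of all measured genes. Their control readings lay close to the background, at 46.4 and 42.8. Without the subtraction their ratios were 1.96 and 1.95 times the SD of probes as bright.

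The remaining measured H3 genes encode H3.1. H3C2, at 65.8 against 57.5, had a log2 ratio of 0.19. H3C4 and H3C11 had ratios of 0.09 and 0.03. H3C3, at 75.7 against 76.7, had -0.02, H3C10, at 61.1 against 70.2, had -0.20, and H3C7, at 49.8 against 58.5, had -0.23. All 9 H3 probes read under 100 on both arrays. H3C6 and H3C12 were above the floor on the control array alone, at least 1.01-fold and 1.05-fold lower, and H3C1 was below it on both. A further H3C13 probe was below it on both as well.

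Within the H4 genes the readings went opposite ways. H4C3 read 7431 after the NSD3L siRNA and 3452 after the control siRNA, a log2 ratio of 1.11 and 2.15-fold higher. It ranked 18th from the highest of all 10545 genes and was the only histone gene past 1.5-fold on the higher side. H4C8 read 118 against 256, a log2 ratio of -1.12 and 2.17-fold lower. The SDs of probes as bright were 0.35 and 0.39. Apart from the divergent H4C7, the H4 genes of the clusters are known to encode the same protein, so the 2 opposite readings stand for transcripts of 1 product.

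H4C14, at 150 against 179, had a log2 ratio of -0.25, H4C12, at 94.7 against 101, had -0.10, and H4C2, at 56.7 against 57.7, had -0.02, all within the SD of probes as bright. H4C5 was above the floor on the control array alone, at 35.2 against 54.2, at least 1.33-fold lower, the largest of the 8 bounds. A second H4C8 probe read 42.0 against 40.1 and so was above the floor on the NSD3L siRNA array alone. It gave only a bound, at least 1.02-fold higher, so the lower reading of H4C8 rests on the brighter probe alone. The other 6 H4 genes were below the floor on both arrays.

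**Figure D2:**
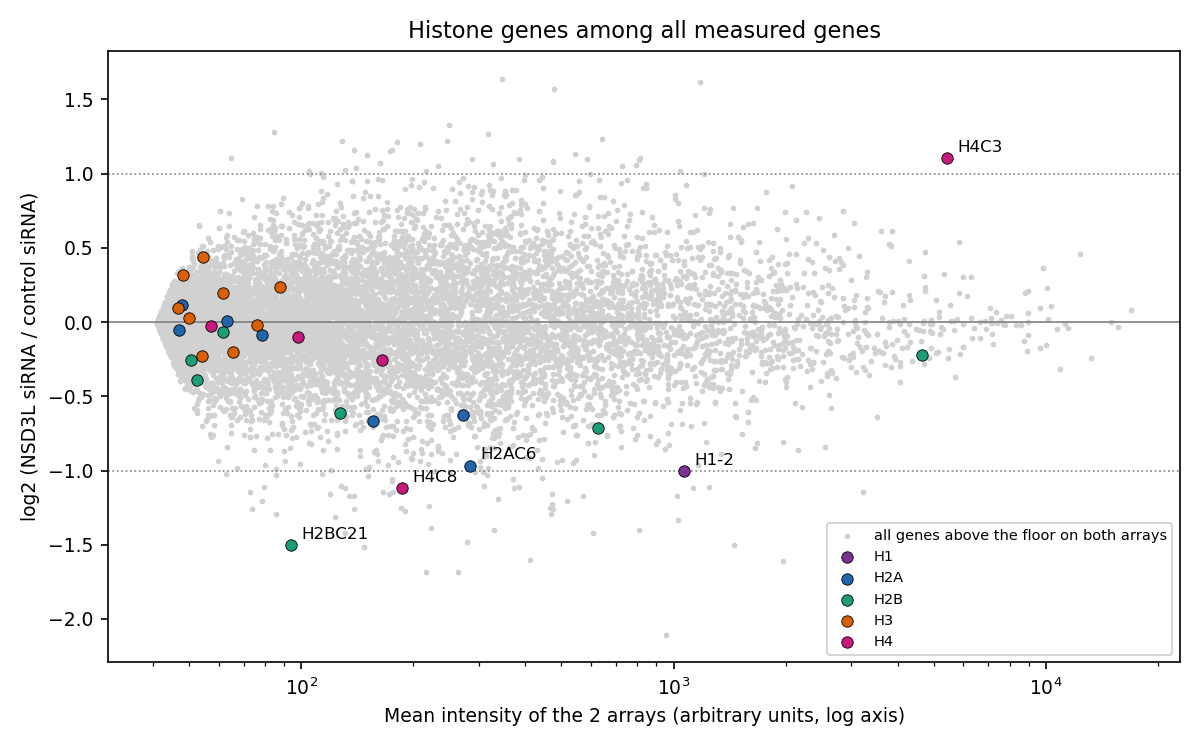
Log2 ratio of NSD3L siRNA over control siRNA against the mean intensity of the 2 arrays (log axis) for all 10545 measured genes (grey) and for the 29 histone genes, coloured by class. Dotted lines mark 2-fold. H2BC21, H4C8 and H1-2 lie below the lower line, H2AC6 just above it and H4C3 above the upper line.

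Lower readings were found in more than 1 cluster. In HIST1, 16 of 23 measured genes read lower (69.6%), with a median log2 ratio of -0.09, and in HIST2 4 of 6 (66.7%), with a median of -0.44. Of all measured genes 50.6% read lower, and the numbers of measured genes by cluster and segment are small. The HIST1 genes lie in 3 segments. In the first, from H2AC1 to H4C8, 9 of 13 measured genes read lower and the log2 ratios ran from -1.12 to 1.11. It holds H1-2 and H4C3, which are next to each other among the genes of this list and had ratios of -1.004 and 1.11. In the second, from H2BC11 to H2AC12, both measured genes read lower. In the third, from H2BC13 to H2BC17, 5 of 8 read lower and all ratios lay between -0.25 and 0.11. None was past 1.5-fold, against 4.06% of all measured genes on the lower side and 3.63% on the higher. Both HIST3 genes were below the floor on both arrays.

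**Figure D3:**
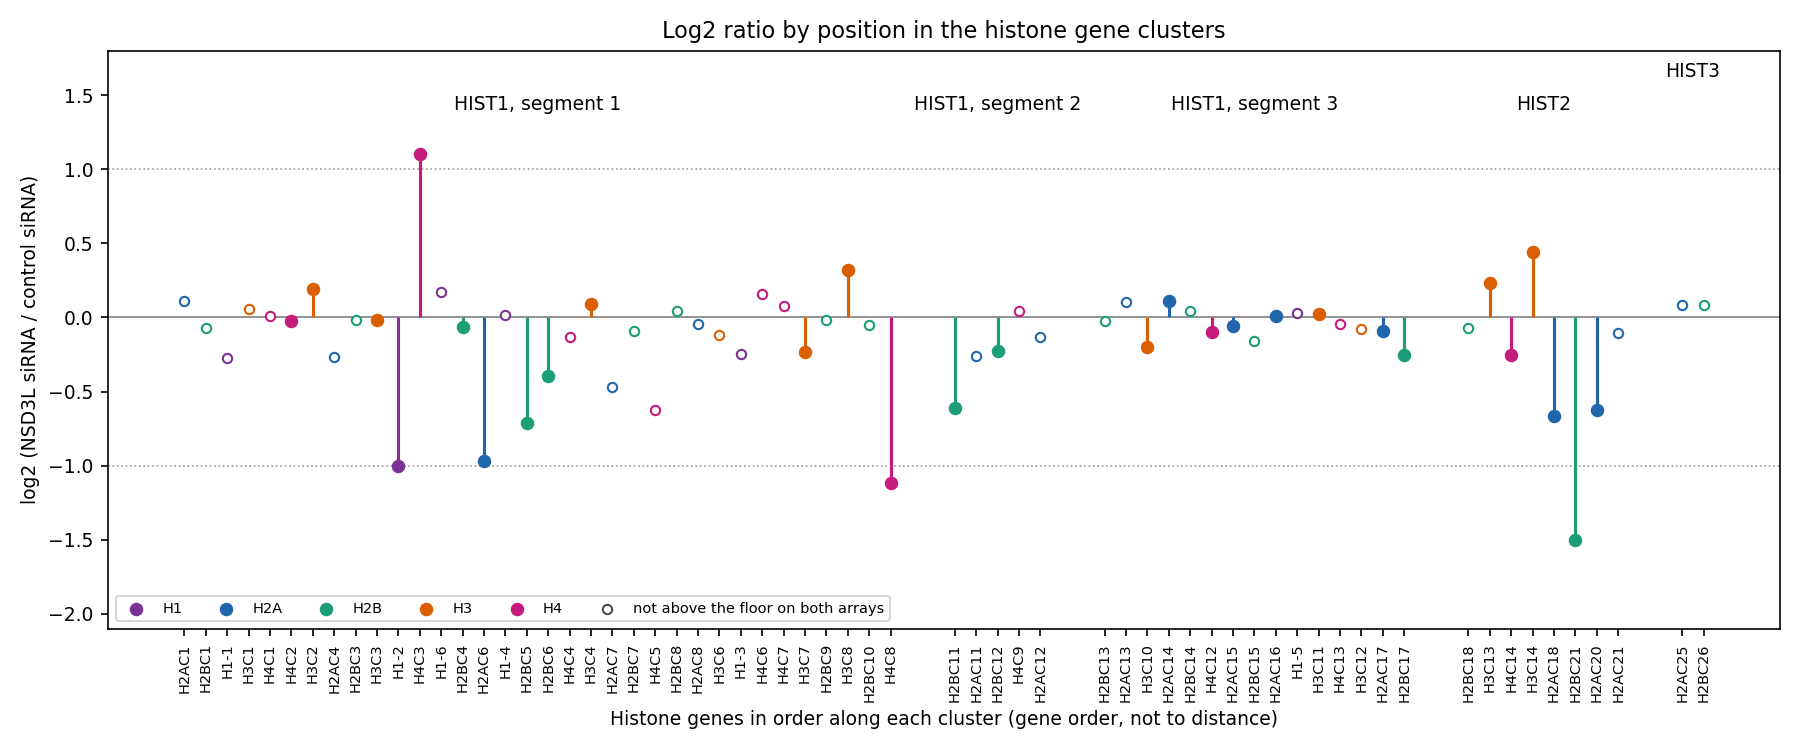
Log2 ratio of NSD3L siRNA over control siRNA for the 64 histone genes in their order along each cluster (gene order, not distance), coloured by class. Filled points with stems are the 29 genes above the floor on both arrays, open points the other 35, whose ratios rest on readings at background. H1-2 and H4C3 stand side by side at -1.004 and 1.11.

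An H2A and an H2B gene often start back to back from 1 shared stretch. The table gave 11 such pairs, with 193 to 247 bases between the start sites, and in 3 of them both genes were measured. H2BC21 and H2AC20, whose shared stretch is shown above with 1 octamer and 3 CCAAT boxes, had log2 ratios of -1.50 and -0.62. H2BC4 and H2AC6 had -0.06 and -0.97, so that 1 gene of that pair was nearly 2-fold lower and its partner near 0. H2AC17 and H2BC17 had -0.09 and -0.25. All 6 genes read lower, by unlike amounts within a pair, but H2BC4 and H2AC17 lay within the SD of 0.27 of probes as bright. Each of the 3 stretches holds 1 octamer, as most H2A and H2B promoters do, and its part in the readings was not tested. In 3 further pairs 1 gene was above the floor on both arrays and its partner on neither, which were H2BC11, H2AC14 and H2AC15 against H2AC11, H2BC14 and H2BC15.

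Genes that are no histone genes but lie within the clusters were read for comparison. Of 19 on the array, 9 were above the floor on both arrays, all in HIST1. Of these, 7 read lower (77.8%, against 50.6% of all measured genes), with a median log2 ratio of -0.30. None of the 9 was past 1.5-fold, against 4.06% of all measured genes on the lower side and 3.63% on the higher. The zinc finger gene ZNF184 had a log2 ratio of -0.56, the butyrophilin genes BTN3A3 and BTN3A2 had -0.47 and -0.36, and the ubiquitin ligase gene TRIM38 had -0.31. BTN2A1, at 306 against 240, was on the other side at 0.35.

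Histone genes outside the clusters, most of which are transcribed throughout the cell cycle, showed no common direction. Of 9 measured of 13 on the array, 4 read lower and 5 higher, and the median log2 ratio was 0.01. None was past 1.5-fold, where 4.06% of all measured genes were on the lower side and 3.63% on the higher. H3-3B, which encodes the variant H3.3, read 253 against 356, with a log2 ratio of -0.49. CENPA, the centromeric H3 variant, had 0.38, the linker histone gene H1-10 had 0.32 and the H2A variant gene H2AJ -0.24. H3-5, a near copy of H3-3B, had 0.27, and whether its probe tells the copies apart was not tested.

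The machinery that makes histone mRNA went both ways. Of 25 measured genes of its transcription and 3' end processing, 13 read lower and 12 higher, with a median log2 ratio of -0.04. None was more than 1.5-fold lower, against 4.06% of all measured genes, and 3 were more than 1.5-fold higher, against 3.63%. NPAT, the coactivator of histone gene transcription, read 167 against 249, with a log2 ratio of -0.57. SRRT, a partner of the cap-binding complex, read 212 against 109, with a ratio of 0.96, the cleavage factor gene CPSF1 had 0.78, UPF1, which takes part in histone mRNA decay, 0.69, and ZNF473, a protein of the U7 particle complex, 0.51. SLBP, named after its value was seen, read 236 against 200, with a log2 ratio of 0.24.

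Histone chaperones, which carry histones to the replication fork and elsewhere, more often read higher. Of 22 measured genes, 15 read higher and 7 lower, where 49.3% of all measured genes read higher. The median log2 ratio was 0.16. More than 1.5-fold higher were 5 (22.7%, against 3.63% of all measured genes), and 2 were more than 1.5-fold lower (9.09%, against 4.06%). CHAF1B, a subunit of the assembly factor CAF-1, read 263 against 135, with a log2 ratio of 0.96. The FACT subunit gene SSRP1 had 0.85 and MCM2, a helicase subunit that binds H3 and H4, 0.66. ASF1A, an H3-H4 chaperone, read 148 against 273 (log2 ratio -0.88), and NAP1L1, an H2A-H2B chaperone, had -0.69.

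S-phase genes other than histones mostly read higher, while 20 of the 29 measured histone genes read lower. Of 27 measured S-phase genes, 25 read higher and 2 lower, where 49.3% of all measured genes read higher. The median log2 ratio was 0.53, and 11 were more than 1.5-fold higher (40.7%, against 3.63% of all measured genes), none more than 2-fold. MCM2 is in this list as well as in that of the chaperones. POLE, a replicative DNA polymerase gene, had 0.98, CDC25A, a phosphatase that activates cyclin-dependent kinases, 0.90, the flap endonuclease gene FEN1 0.85, the cyclin E gene CCNE1 0.78 and UHRF1, which reads hemimethylated DNA, 0.78. H4C3 lay on the same side as these genes and H4C8 and the H1, H2A and H2B genes past 1.5-fold on the other. The part of the cell cycle in the histone readings was not tested.

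**Figure D4:**
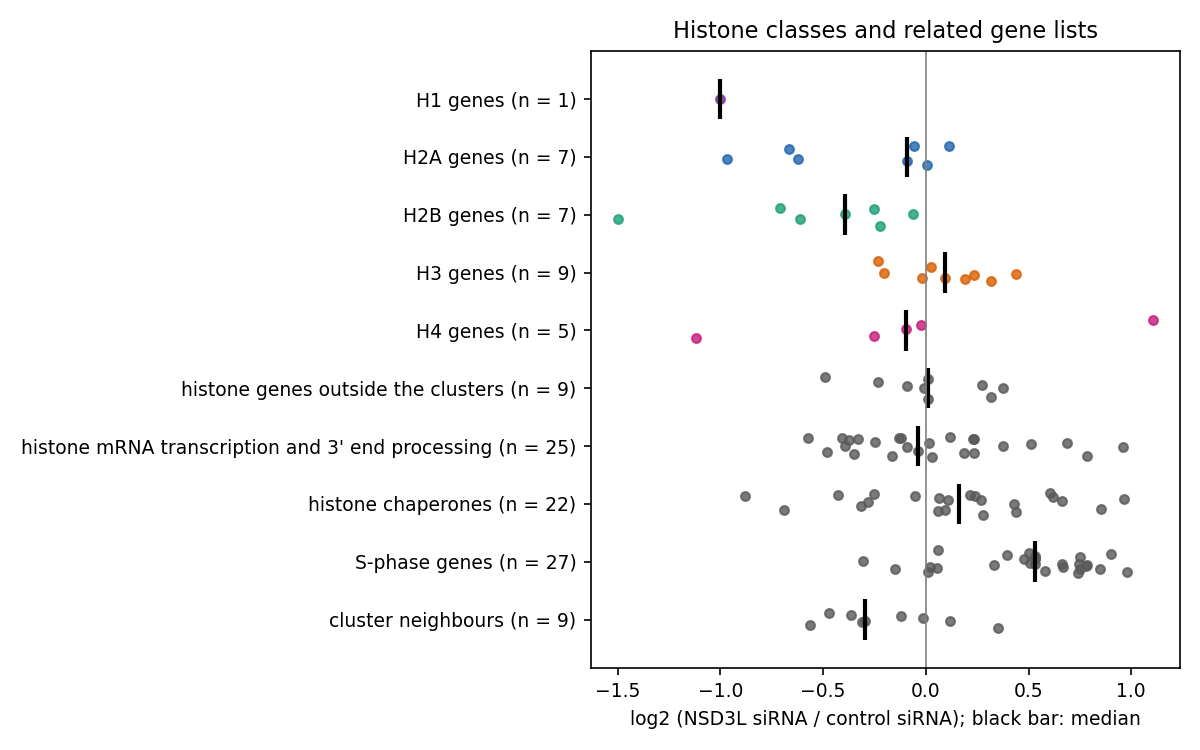
Log2 ratio of NSD3L siRNA over control siRNA for the measured genes of each histone class and of 5 related lists, with the number of genes in brackets. Points are genes, spread vertically for display alone, and black bars are medians, which are -0.39 for the H2B genes, 0.09 for the H3 genes and 0.53 for the S-phase genes.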

How the data were processed

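Expression was measured on 1-colour Illumina HumanWG-6 beadchips, 1 array per siRNA. The authors' deposited table holds 1 linear intensity for each of 48701 probes and array; per the submitters' processing notes BeadStudio was used, with no version, and background correction and normalization are not stated in these sources. The sorted values of the arrays differ by at most 0.025 on the log2 scale, the pattern of quantile normalization. The intensities were used as deposited, with no further scaling. Gene symbols came from the platform's annotation, updated by gene number through a RefSeq table, which held all 71 histone probes. The series text names array version 3.0, and whether the annotation is of that version was not established, which bears on all names. A mismatched or cross-hybridising probe was not tested for, since no probe sequences were used here.

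The floor of an array was 2 times the mode of its intensities (peak of a kernel density below the 75th percentile) less their 1st percentile. The brightest probe stood for a gene. A probe above the floor on 1 array got a bound, with the floor in place of the dimmer reading. All histone genes that exceeded the floor on 1 array or both are named, and up to 5 genes with the largest ratio in each comparison list. The members and lists were chosen with earlier results of these data known. No test across samples was possible, and counts past 1.5-fold and 2-fold stand beside those of all genes. The 2-fold threshold is that of the series text. Python 3.11.15, numpy 2.4.6, pandas 2.3.3, scipy 1.17.1 and statsmodels 0.14.6 were used, and the steps were tested on simulated data. Alternatives were quantile normalization, median centring, lowess (span 0.3), subtraction of the mode, an offset of 16, other floors, the mean over probes, and 1.5-fold and 3-fold thresholds.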

Additional observations from a re-analysis of the deposited data

How the results depend on the processing

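Quantile normalization, median centring, lowess, an offset of 16, the mean over probes, probes of several symbols and the removal of pseudogenes (there were none) left 2 or 3 histone genes more than 2-fold lower, 1 more than 2-fold higher, 20 or 21 lower and 8 or 9 higher. Some of these settings could hardly change the counts. The sorted values of the arrays already differed by at most 0.025, and median centring moved the median only from -0.0982 to -0.0996. The probe of several symbols was not above the floor on both arrays, so adding it could not change them. H1-2 was the gene at the threshold, with a log2 ratio of -0.99 under lowess and with the offset. Subtracting the mode of each array gave 5 genes more than 2-fold lower and 3 higher. Without a floor, 41 of 64 genes read lower and 23 higher. With the 75th percentile as floor, 5 of 22 read higher. Among genes with a mean intensity above 100, a setting chosen after seeing the data, 9 read lower and 1 higher, with a median of -0.64. A 1.5-fold threshold gave 8 lower genes, and at 3-fold 0 were lower and 0 higher. With the mode subtracted, 16 of 37 ratios of named histone genes moved further than the SD of similarly bright probes, and with the offset 3 of 37 did. None did in the other settings, for 19 of 214 recomputed ratios in total. The sign changed in 1, that of H2AC16, from 0.01 to -0.01 under lowess. No paired analysis was possible because each group had 1 array. Low signal over background limits the 27 genes below the floor on both arrays, whose transcripts were not detectable here rather than shown to be missing.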

Other observations

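A probe annotated to both H3C11 and H3C6, left out of the counts because it has several symbols, read 44.7 after the NSD3L siRNA and 33.7 after the control siRNA, above the floor on the former alone, with a log2 bound of 0.13. The single-symbol probes of these genes had a log2 ratio of 0.03 for H3C11 and, for H3C6, a bound on the lower side. H3-4, a testis H3 gene of the HIST3 region whose symbol in the probe annotation lies outside the rule, was below the floor on both arrays, at 38.2 and 38.5.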
